A study of Mus musculus with 19 samples.

Results

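Re-feeding of mice given an antisense oligonucleotide (ASO) against Plin5 was followed in liver RNA by comparing 5 re-fed with 5 fasted PLIN5 ASO libraries, 10 of the 19 libraries of the series. Each library was made from total RNA of 1 liver sample. The fasted PLIN5 ASO group was injected with the Plin5-directed ASO 2 times a week for 3 weeks and fasted overnight. The re-fed PLIN5 ASO group had the same injections and the same fast, and then ate for 4 h. A fasted control ASO group (4 libraries) and a re-fed control ASO group (5 libraries) were treated alike with a control ASO. All animals were kept on a purified normal diet, and all 4 groups share the fast and the injections. Strain, sex and age were not stated, and neither was the ASO sequence or whether each library is 1 animal. An ASO is a short modified DNA-like strand that directs degradation of a matching RNA. The labels do not tie the knockdown to 1 cell type of the liver. The comparison covers 13293 genes that passed a filter on low counts.

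Perilipin 5, the product of Plin5, coats lipid droplets and tethers them to mitochondria in tissues that burn fat. In the fasted liver, fatty acids from adipose tissue activate the nuclear receptor PPAR alpha, which raises genes of fatty acid oxidation and ketone body synthesis. On re-feeding, insulin and glucose act through the transcription factors SREBP-1c and ChREBP to raise glycolysis and fatty acid synthesis, and FoxO-driven gluconeogenic genes fall.

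Values below are CPM, counts per 1e6 counts of the library, on library sizes scaled by the trimmed mean of M-values. Fold changes are log2 of re-fed over fasted with the standard error, from edgeR's quasi-likelihood fit. A gene is said to have risen or fallen where its Benjamini-Hochberg adjusted p over all genes tested is below 0.05. Total counts, in units of 1e6, were 28.71 to 31.82 in the fasted PLIN5 ASO libraries, 24.94 to 28.4 in 4 of the re-fed ones and 66.86 in re-fed library 5. Plin5 was at 6.14 to 13.1 CPM in the fasted and 3.91 to 11.8 CPM in the re-fed PLIN5 ASO libraries, against 35.1 to 38.5 and 27.3 to 51.8 CPM in the fasted and re-fed control ASO libraries. The difference between fasted and re-fed PLIN5 ASO libraries did not pass the test (log2 fold change -0.24 ± 0.27, adjusted p = 0.634). The liver label is met by the hepatocyte markers, whose 11 members summed to 103086 to 161985 CPM. Of 12 markers of pancreas, fat and blood, 5 were at 0 in all 10 libraries. The 12 together summed to 170 to 209 CPM fasted and 200 to 266 CPM re-fed, so others of them were detected. Fasted libraries 3 and 5 stood apart in clock genes. Arntl, a core activator of the circadian clock, was at 0.566, 1.66, 14.6, 1.61 and 14.97 CPM in fasted libraries 1 to 5 and at 2.54, 4.87, 1.77, 3.93 and 2.98 CPM in re-fed libraries 1 to 5. Dbp, a clock output gene, was at 4.80 and 18.9 CPM in those 2 fasted libraries and at 36.3 to 137 CPM in the other 8. Values given without the clock-shifted libraries leave out these 2 together with the 2 re-fed control ASO libraries of the same clock state.

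Re-feeding changed 1148 of 13293 genes under PLIN5 ASO. Of these, 598 rose (4.50% of genes tested) and 550 fell (4.14%). At least 2-fold changes numbered 94 up and 106 down, and at least 4-fold changes 23 up and 27 down. The median log2 fold change over all genes tested was 0.00. In 524 genes (3.94%) every re-fed library lay above every fasted one, and in 482 (3.63%) every re-fed library lay below. The count of called genes was 741 without fasted library 5, 748 without re-fed library 3 and 1048 without the clock-shifted libraries, and 696 of the last number were among the 1148. The labels do not say that libraries are separate animals, so the p-values measure the spread between these samples.

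The largest rises ran across several functions. Slc2a4, the insulin-regulated glucose transporter of muscle and fat, was at 0.133, 0.391, 0.0649, 0.597 and 0.209 CPM in the fasted libraries and 2.28, 8.34, 12.01, 2.19 and 1.28 CPM in the re-fed ones (log2 fold change 4.20 ± 0.82, adjusted p = 0.00321). Its levels stayed low, every re-fed library lay above every fasted one, and re-fed libraries 2 and 3 were highest. Its call was lost by limma on unfiltered log2(FPKM + 1) (adjusted p = 0.0595). Klf10, a Krüppel-like transcription factor, was at 15.8, 13.6, 24.7, 11.4 and 19.6 CPM fasted and 78.6, 81.3, 121, 65.9 and 81.5 CPM re-fed (log2 fold change 2.33 ± 0.20, adjusted p = 1.5e-06). Rrm2, the small subunit of ribonucleotide reductase, was at 2.96, 1.89, 2.31, 3.09 and 1.54 CPM fasted and 11.8, 18.8, 15.96, 9.29 and 10.8 CPM re-fed (log2 fold change 2.49 ± 0.28, adjusted p = 2.6e-05). For both genes the groups did not overlap. Hcn3, a cation channel gene, rose with log2 fold change 3.63 ± 0.48, adjusted p = 0.00013, but by limma on unfiltered log2(FPKM + 1) its log2 fold change was -0.0200 (adjusted p = 0.605). The 3' ends of Hcn3 (chr3:89146074-89160196, minus strand) and Pklr (chr3:89136142-89146784, plus strand; GRCm38) overlap, and the counting is not stated to use strand, so reads of these genes cannot be told apart there.

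**Figure D1:**
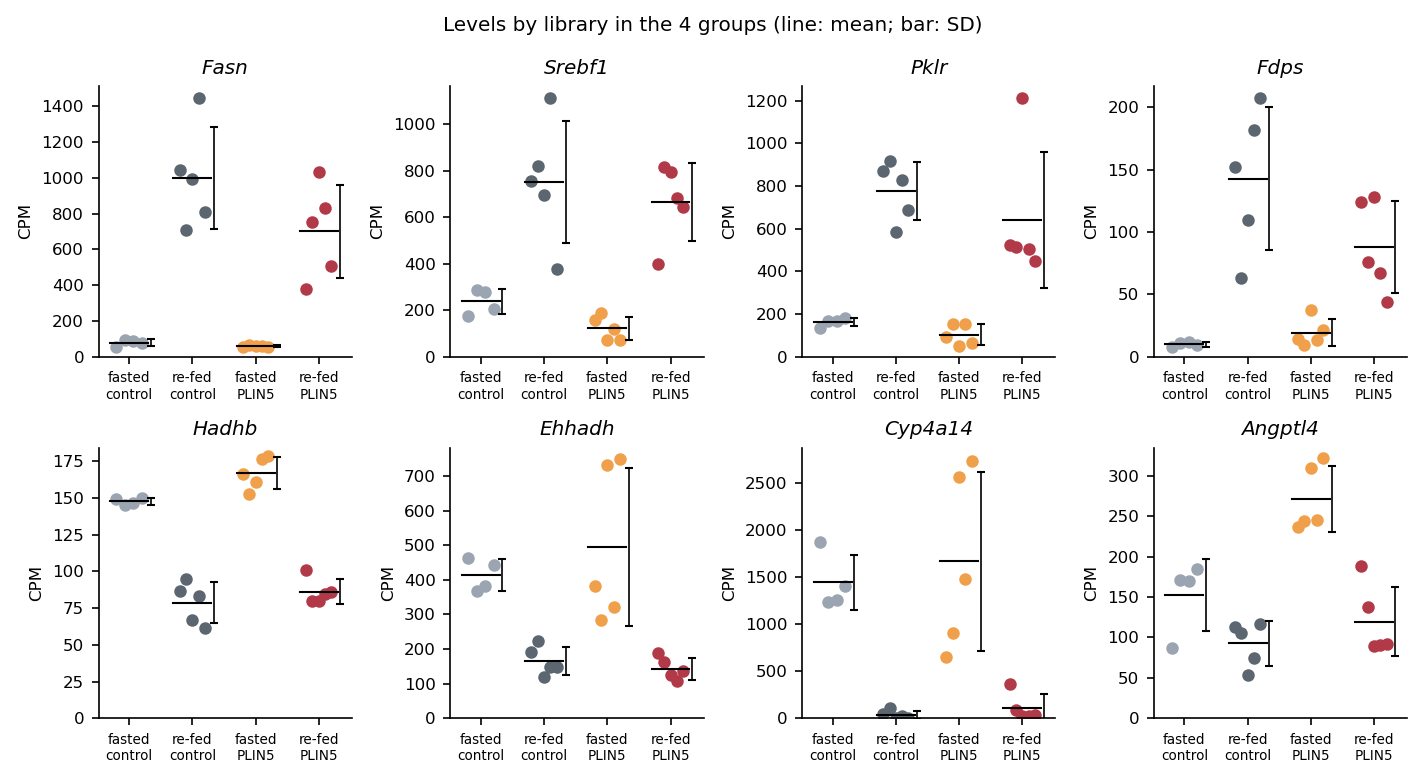
CPM (linear axis from 0) of 8 genes in the 4 groups; each point is 1 library, the line is the group mean and the bar the SD, with its lower end cut at 0 where it would fall below. Fasn runs from 53.9 to 65.2 CPM in fasted and from 378 to 1032 CPM in re-fed PLIN5 ASO libraries, and Hadhb from 153 to 178 down to 79.6 to 101 CPM.

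Fatty acid synthesis showed the highest share of risen members among the lists. Of 22 members tested, 16 rose and 0 fell, with a median log2 fold change of 1.42, against 4.50% of all genes risen and a median of 0.00. Fasn, fatty acid synthase, was at 54.3, 65.2, 60.4, 62.6 and 53.9 CPM in fasted libraries 1 to 5 and at 378, 756, 1032, 834 and 506 CPM in re-fed libraries 1 to 5. The fasted values lay close together, and the lowest re-fed library was far above all of them. Between the groups the rise was 11.8-fold (log2 fold change 3.56 ± 0.25, adjusted p = 8.5e-08). Mid1ip1, which promotes acetyl-CoA carboxylase polymerisation, was at 24.3, 18.3, 19.3, 16.5 and 15.5 CPM fasted and 87.8, 164, 148, 136 and 125 CPM re-fed (log2 fold change 2.82 ± 0.17, adjusted p = 6.8e-09). Its partner Thrsp was far more variable, at 115, 261, 12.7, 312 and 54.7 CPM fasted and 788, 2167, 1901, 837 and 560.5 CPM re-fed (log2 fold change 3.05 ± 0.65, adjusted p = 0.0061). The 2 clock-shifted fasted libraries were the lowest for Thrsp, and the groups still did not overlap. Its log2 fold change was 2.45 without the clock-shifted libraries. Acacb, the acetyl-CoA carboxylase of the mitochondrial surface, rose with log2 fold change 2.05 ± 0.38, adjusted p = 0.00204. Elovl6, which lengthens palmitate, rose with log2 fold change 1.92 ± 0.31, adjusted p = 0.00055. Pnpla3, a lipid droplet hydrolase and acyltransferase, had the largest log2 fold change of the list at 4.01. The 6 members that did not pass the test were Elovl3, Elovl5, Fads2, G6pdx, Scd1 and Scd2. Scd1, the main liver desaturase, had a log2 fold change of 0.67 and the elongase Elovl3 of -1.50. Pnpla3 and these 6 genes were named after their values were seen.

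Glucose and fructose handling rose as well. In the glycolysis and glycogen list 11 of 20 members rose and 0 fell, against 4.50% of all genes risen. The median log2 fold change of the list was 0.55. Pklr, liver pyruvate kinase and a member of both this and the fatty acid synthesis list, was at 90.9, 156, 52.2, 152 and 66.2 CPM fasted and 522, 516, 1211, 505 and 448 CPM re-fed (log2 fold change 2.63 ± 0.31, adjusted p = 3.1e-05). Re-fed library 3 was more than 2 times every other PLIN5 ASO library, and the remaining 4 re-fed ones still lay above all fasted values. Pygl, liver glycogen phosphorylase, was at 301, 343, 299, 291 and 309 CPM fasted and 553, 592, 782, 666 and 604 CPM re-fed (log2 fold change 1.05 ± 0.09, adjusted p = 1.5e-06). Both enzymes of the first fructose steps rose. Khk, ketohexokinase, had log2 fold change 0.98 ± 0.17, adjusted p = 0.0014, and Tkfc, triokinase, was at 166, 200.03, 160.4, 154 and 153 CPM fasted and 440.1, 696, 658, 565 and 429 CPM re-fed (log2 fold change 1.74 ± 0.15, adjusted p = 1.1e-06). Gapdh, also risen and named after its values were seen, had a mean of 28.3 CPM fasted and 90.8 CPM re-fed. That is low for a gene most cells express strongly, and it has many near-identical pseudogene copies, so its value is uncertain. Without the clock-shifted libraries 8 of the 20 members rose.

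Lipogenic transcription regulators rose in 5 of 13 cases and fell in 0, with a median of 0.10, against 4.50% of all genes risen. Srebf1, which encodes the SREBP-1 proteins, was at 157, 187, 71.9, 120.5 and 74.1 CPM fasted and 399, 817, 796, 684 and 644 CPM re-fed (log2 fold change 2.45 ± 0.30, adjusted p = 5.2e-05). All re-fed libraries exceeded all fasted ones, and the clock-shifted fasted libraries 3 and 5 were the lowest. Bhlhe40, an insulin-responsive repressor that also acts on the clock, was at 134, 147, 118, 130.1 and 105 CPM fasted and 261, 314, 359, 310.02 and 288 CPM re-fed (log2 fold change 1.27 ± 0.13, adjusted p = 6.4e-06). Mlx, the partner of ChREBP, rose with log2 fold change 0.59 ± 0.09, adjusted p = 0.00034. Mlxipl, which encodes ChREBP, had log2 fold change 0.55 ± 0.16, adjusted p = 0.0347, and its call was lost without any 1 of fasted libraries 1 to 5 or re-fed libraries 2, 3 and 4 (adjusted p 0.053 to 0.109). Insig1, which retains SREBP in the endoplasmic reticulum, had log2 fold change 0.78 ± 0.23, adjusted p = 0.0375, and its call was lost without any 1 of fasted libraries 2 to 5 or re-fed libraries 1, 3, 4 and 5 (adjusted p 0.0516 to 0.109). Without the clock-shifted libraries 3 of the 13 rose, and Mlxipl and Insig1 were not among them (adjusted p = 0.0685 and 0.103).

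**Figure D2:**
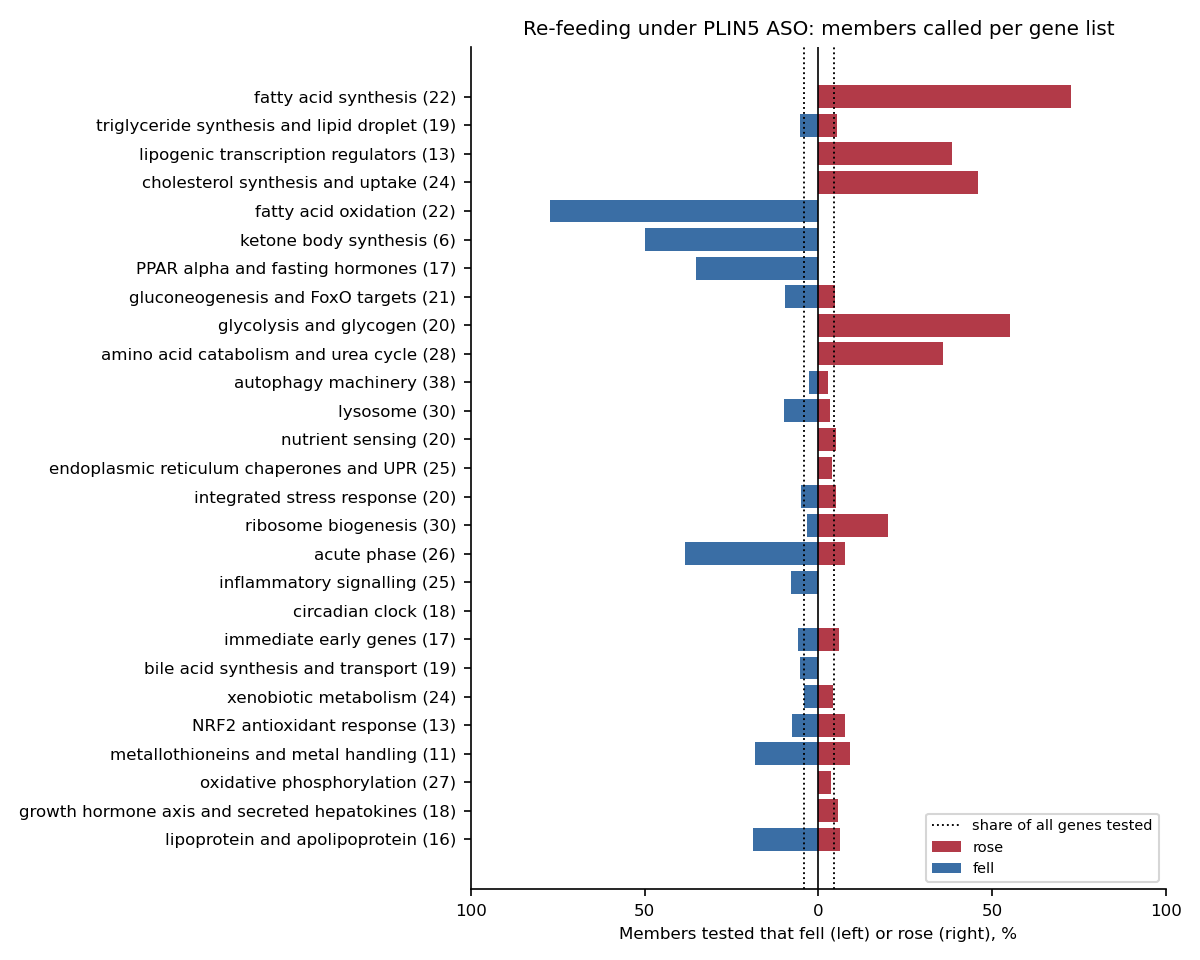
Share of the members tested (number in brackets) that rose (right, red) or fell (left, blue) in each of 27 gene lists, in percent; dotted lines mark the 4.50% and 4.14% of all genes tested. Fatty acid synthesis (16 of 22 up) and fatty acid oxidation (17 of 22 down) extend furthest, and the circadian clock list has no bar.

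Cholesterol synthesis and uptake rose less evenly. Of 24 members, 11 rose and 0 fell, with a median log2 fold change of 0.60, against 4.50% of all genes risen. Fdps, which makes farnesyl diphosphate, was at 14.6, 9.31, 37.5, 13.7 and 21.8 CPM fasted and 124, 76.1, 128, 66.9 and 44.3 CPM re-fed (log2 fold change 2.18 ± 0.37, adjusted p = 0.00096). The lowest re-fed library, 5, lay just above the highest fasted one, 3, and the log2 fold change was 2.81 without the clock-shifted libraries. Nsdhl, a sterol demethylation enzyme, was at 12.3, 11.1, 24.5, 12.7 and 14.2 CPM fasted and 36.8, 25.9, 39.1, 36.6 and 28.8 CPM re-fed (log2 fold change 1.16 ± 0.24, adjusted p = 0.0057), with fasted library 3 above the other 4 fasted values. Lss, lanosterol synthase, rose with log2 fold change 0.71 ± 0.14, adjusted p = 0.00477, and Ebp, a sterol isomerase, with log2 fold change 0.30 ± 0.06, adjusted p = 0.00519. Under control ASO 20 of the 24 rose, with a median of 1.10. The difference between the 2 responses was called for 0 of the 24, and for Lss it was -0.93 (95% interval -1.38 to -0.49), adjusted p = 0.118.

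CCAAT, the binding motif of the factor NF-Y, was frequent in the promoters of these genes, and some are printed to show where it lies. The 250 bases before the RefSeq start (build GRCm38.p6) were available for 10109 of the 13293 genes tested. Searched on both strands (CCAAT or ATTGG), it was present in 14 of the 16 cholesterol-list promoters with an entry (87.5%). It was present in 36.3% of the promoters of all genes tested, in 43.3% of those of risen and in 32.9% of those of fallen genes. In the fatty acid synthesis list it was found in 9 of 17 (52.9%) and in the fatty acid oxidation list in 10 of 19 (52.6%). The E-box CACGTG was found in 9.45% of risen and 8.46% of all tested promoters. These shares are a description of the letters in that window. Below, written 5′ to 3′ on the gene's strand, CCAAT or its reverse complement is in capitals. The Fasn promoter (minus strand) is shown whole because Fasn is the central enzyme of its pathway, and 2 of its 3 matches overlap on opposite strands.
Fasn chr11:120824548-120824797: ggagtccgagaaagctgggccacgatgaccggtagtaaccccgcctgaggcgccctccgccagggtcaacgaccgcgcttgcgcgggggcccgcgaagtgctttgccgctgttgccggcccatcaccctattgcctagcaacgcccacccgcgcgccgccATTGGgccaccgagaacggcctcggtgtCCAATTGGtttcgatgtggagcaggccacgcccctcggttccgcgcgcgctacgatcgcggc
For 6 risen cholesterol-list genes, a window of up to 41 bases around the match nearest the start is shown. The genes are those with both a call and a match, chosen after the motif results were seen.
Lss chr10:76531525-76531565: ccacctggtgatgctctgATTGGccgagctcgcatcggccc
Nsdhl chrX:72918483-72918520: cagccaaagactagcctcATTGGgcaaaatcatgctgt
Ebp chrX:8193545-8193585: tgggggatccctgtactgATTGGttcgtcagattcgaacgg
Sc5d chr9:42264302-42264342: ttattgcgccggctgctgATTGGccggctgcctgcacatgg
Mvd chr8:122443427-122443467: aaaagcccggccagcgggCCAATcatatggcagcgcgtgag
Msmo1 chr8:64733611-64733651: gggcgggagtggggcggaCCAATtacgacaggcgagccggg
The match began within 62 bases of the annotated start in all 6. Acat2 and Dhcr7, also risen, had no match in the window. The motif did not set risen members apart, since 6 of the 8 risen cholesterol-list genes with an entry held it and so did all 8 that were not called.

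Fatty acid oxidation fell as a group. Of 22 members, 17 fell and 0 rose, with a median log2 fold change of -0.75, against 4.14% of all genes fallen. Hadhb, the beta subunit of the mitochondrial trifunctional protein, was at 167, 153, 161, 176 and 178 CPM fasted and 101, 79.9, 79.6, 84.9 and 85.9 CPM re-fed (log2 fold change -0.95 ± 0.10, adjusted p = 1.2e-05). Its alpha subunit Hadha was at 486, 454, 472, 496 and 494 CPM fasted and 359, 292, 265, 269 and 294 CPM re-fed (log2 fold change -0.70 ± 0.08, adjusted p = 4.5e-05). In both, every re-fed library was below every fasted one, and re-fed library 1 was the highest of the re-fed. Acadm, medium-chain acyl-CoA dehydrogenase, fell with log2 fold change -0.76 ± 0.12, adjusted p = 0.00042, and Etfdh, which passes its electrons to ubiquinone, with log2 fold change -0.74 ± 0.11, adjusted p = 0.00024. Ehhadh, a peroxisomal bifunctional enzyme, was at 384, 284, 733, 320.2 and 750.4 CPM fasted and 188, 162, 124, 108 and 136 CPM re-fed (log2 fold change -1.78 ± 0.25, adjusted p = 0.00023). The clock-shifted fasted libraries 3 and 5 held the 2 highest values, and without the clock-shifted libraries the log2 fold change was -1.20. Cpt1a, which admits fatty acids into mitochondria, had log2 fold change -0.56 ± 0.20, adjusted p = 0.0837 and did not pass the test. It did pass without the clock-shifted libraries (-0.68, adjusted p = 0.00772), without re-fed library 1 (-0.73, adjusted p = 0.0224) and by DESeq2 (adjusted p = 0.0366).

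The omega-hydroxylases of the Cyp4a family, textbook PPAR alpha targets, fell steeply. Cyp4a14 (chr4:115486200-115496142, minus strand) was at 653, 903, 2567, 1476 and 2739 CPM fasted and 369, 92.01, 28.1, 23.5 and 40.5 CPM re-fed (log2 fold change -3.91 ± 0.97, adjusted p = 0.0163). Re-fed library 1 stood well above the other 4 re-fed libraries, and without it the log2 fold change was -5.18. Cyp4a31 was at 45.6, 20.7, 100.1, 41.7 and 88.6 CPM fasted and 8.54, 7.43, 2.497, 2.62 and 5.94 CPM re-fed (log2 fold change -3.46 ± 0.40, adjusted p = 3.1e-05). Cyp4a10, at 492 to 1473 CPM fasted and 55.4 to 375 CPM re-fed, had log2 fold change -2.79, adjusted p = 0.0217. Its adjusted p was 0.0509 to 0.0605 without fasted library 5 or re-fed library 2, 3 or 4. Without the clock-shifted libraries the log2 fold changes were -3.19 for Cyp4a14, -2.74 for Cyp4a31 and -2.38 for Cyp4a10. These genes are close relatives, so the split of reads between them is uncertain.

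Ketone body synthesis and the fasting hormones moved the same way in fewer members. Of 6 ketone body genes 3 fell and 0 rose, where 4.14% of all genes tested fell. Acat1, a mitochondrial thiolase that joins acetyl-CoA units, was at 691, 689, 581, 760.1 and 689 CPM fasted and 612, 510.4, 500.2, 541 and 530.4 CPM re-fed (log2 fold change -0.34 ± 0.09, adjusted p = 0.0229). The groups overlapped, since re-fed library 1 lay above fasted library 3. Bdh1, which interconverts the ketone bodies acetoacetate and hydroxybutyrate, fell with log2 fold change -0.45 ± 0.13, adjusted p = 0.0321. Without re-fed library 3, or without fasted library 4, neither passed the test and 1 of the 6 members fell. Acat1 also missed the threshold without fasted library 5 (adjusted p = 0.0505), and Bdh1 without fasted library 2 or re-fed library 2, 4 or 5 (adjusted p from 0.0593 to 0.067 in these fits). In the list of PPAR alpha and fasting hormones 6 of 17 fell and 0 rose, beside the same 4.14%, and 3 fell without re-fed library 3. Creb3l3, a liver transcription factor activated by fasting, fell with log2 fold change -0.50 ± 0.08, adjusted p = 0.00043. Angptl4, an inhibitor of lipoprotein lipase, was at 237, 243, 309, 245 and 321 CPM fasted and 188, 137, 89.95, 90.5 and 92.2 CPM re-fed (log2 fold change -1.18 ± 0.24, adjusted p = 0.00491). Igfbp1, an insulin-repressed secreted protein, was at 58.7, 123, 157, 89.9 and 216 CPM fasted and 44.5, 33.4, 30.2, 42.1 and 20.6 CPM re-fed (log2 fold change -1.92 ± 0.49, adjusted p = 0.0202), and the adjusted p was 0.060 without fasted library 5 and 0.0519 without re-fed library 3. Under control ASO its log2 fold change was 0.38, and the difference of -2.30 (95% interval -3.78 to -0.81) did not pass the test (adjusted p = 0.205). The clock-shifted re-fed control ASO library 5 was at 213 CPM. The other re-fed control ASO libraries were at 21.2 to 74.3 CPM and the fasted ones at 27.9 to 82.5 CPM. Fgf21, the fasting hormone, was at 3.83, 5.18, 18.4, 6.74 and 20.4 CPM fasted and 9.64, 6.74, 3.76, 2.99 and 1.43 CPM re-fed, and the groups overlapped (log2 fold change -1.18 ± 0.48, adjusted p = 0.137). The 2 highest values were those of the clock-shifted fasted libraries, and without the clock-shifted libraries the log2 fold change was -0.13 (adjusted p = 0.906). Ppargc1a had log2 fold change -0.23 ± 0.20, adjusted p = 0.519 and Sirt1 log2 fold change -0.15 ± 0.09, adjusted p = 0.352, and neither passed the test.

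**Figure D3:**
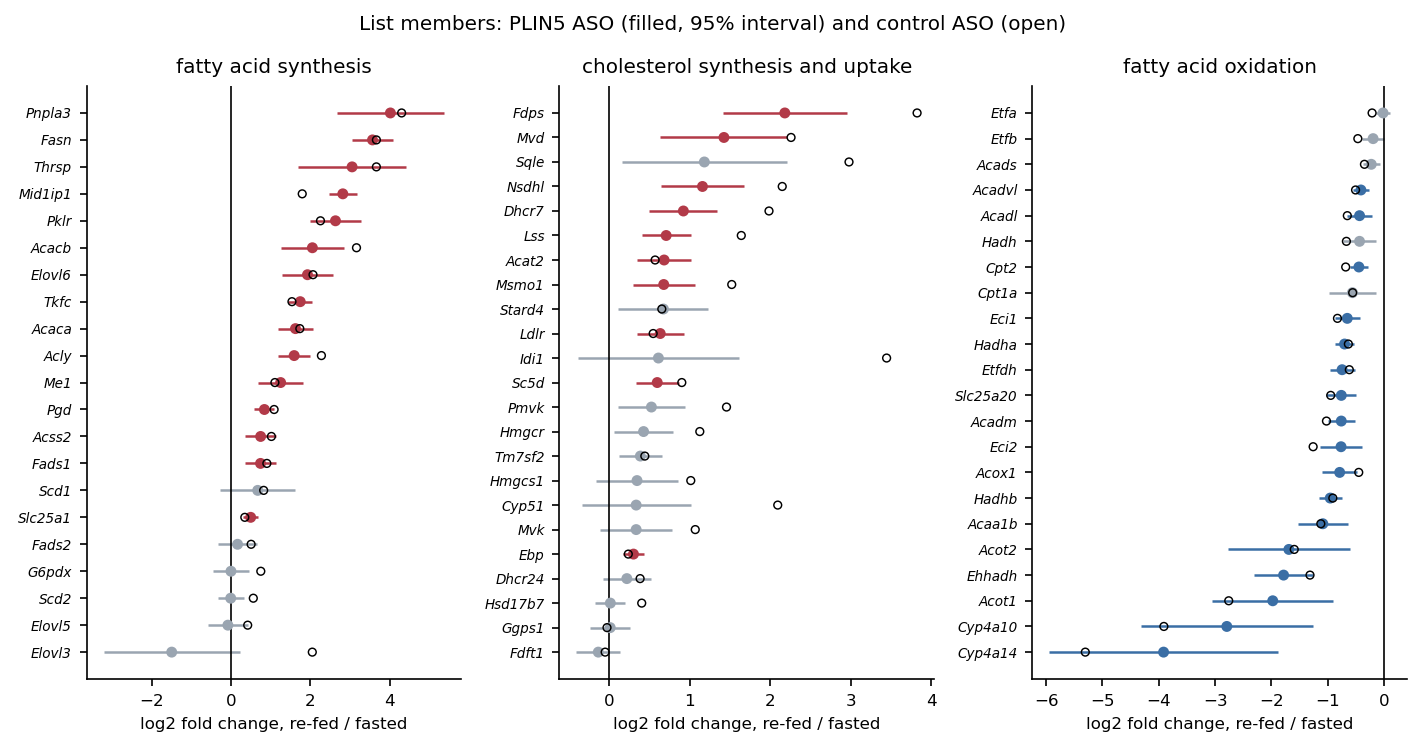
Log2 fold change of re-fed over fasted for the tested members of 3 lists that are described here, with the 95% interval, under PLIN5 ASO (filled; red rose, blue fell, grey not called) and under control ASO (open, no interval drawn). Fatty acid synthesis members run from -1.50 (Elovl3) to 4.01 (Pnpla3), and the fatty acid oxidation members reach down to -3.91 (Cyp4a14).

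Of 19 lipid droplet and triglyceride synthesis genes tested, 1 rose and 1 fell, with a median of 0.02. For this list and the lipoprotein list below, the shares over all genes tested were 4.50% risen and 4.14% fallen. The number that fell was 2 without re-fed library 1 or 2 and without the clock-shifted libraries. Plin2, the droplet coat protein that tracks stored fat, was at 438, 410.03, 675, 514 and 754 CPM fasted and 408, 229, 213, 238 and 289 CPM re-fed (log2 fold change -1.02 ± 0.18, adjusted p = 0.0015). Its 2 highest values were those of the clock-shifted fasted libraries 3 and 5. Without the clock-shifted libraries its log2 fold change was -0.72 (adjusted p = 0.0107). Lpin1, a phosphatidate phosphatase, had log2 fold change 1.90 ± 0.49, adjusted p = 0.0205, and its adjusted p was 0.051 to 0.0571 without fasted library 3, fasted library 5 or re-fed library 3. Among lipoprotein genes 1 of 16 rose and 3 fell. The rise was lost without any 1 of libraries 1, 2, 3 and 5 of either PLIN5 ASO group, and without the clock-shifted libraries. The falls numbered 2 without the clock-shifted libraries or any 1 of re-fed libraries 1 to 5 and fasted libraries 1, 3 and 5. Apob, the structural protein of VLDL, fell with log2 fold change -0.41 ± 0.09, adjusted p = 0.00554, and Lcat, the plasma cholesterol esterifier, with log2 fold change -0.38 ± 0.08, adjusted p = 0.00396.

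In the list of gluconeogenesis and FoxO targets 1 of 21 members rose and 2 fell, beside 4.50% risen and 4.14% fallen over all genes. Without fasted library 2, 0 fell, and 1 fell without any 1 of re-fed libraries 2, 3 and 4 or fasted libraries 1 and 5. Without re-fed library 2 or 3 or fasted library 3 or 5, 0 rose. Pck1, phosphoenolpyruvate carboxykinase, was at 4466, 4672, 4672, 3621 and 4888 CPM fasted and 3395, 2334, 1556, 3211 and 3065 CPM re-fed (log2 fold change -0.72 ± 0.21, adjusted p = 0.039). Its adjusted p was 0.0623 to 0.0937 without any 1 of fasted libraries 1, 2, 3 and 5 or re-fed libraries 2 and 3, and 0.138 without the clock-shifted libraries. G6pc, glucose-6-phosphatase, was at 364, 559.7, 804, 663 and 902 CPM fasted and 460.3, 925, 977, 938 and 877 CPM re-fed, and overlapped (log2 fold change 0.34 ± 0.26, adjusted p = 0.445). Irs2, an insulin receptor substrate repressed by insulin, had log2 fold change -1.30 ± 0.41, adjusted p = 0.0576. Every re-fed library lay below every fasted one, and the threshold was missed.

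Urea cycle and amino acid genes rose in 10 of 28 cases and fell in 0, with a median of 0.20, against 4.50% of all genes risen. Cps1, which starts the urea cycle, was at 2293, 2232, 1924, 1825 and 2462 CPM fasted and 3163, 3028, 3531, 3225 and 3108 CPM re-fed (log2 fold change 0.58 ± 0.09, adjusted p = 0.00035). Arg1, arginase, was at 1186, 1412, 1132, 1274 and 1271 CPM fasted and 1802, 2093, 1901, 2082 and 1941 CPM re-fed (log2 fold change 0.65 ± 0.10, adjusted p = 0.00066). Sds, serine dehydratase, had log2 fold change 1.05 ± 0.23, adjusted p = 0.00681, and Gls2, liver glutaminase, log2 fold change 0.64 ± 0.12, adjusted p = 0.00252. All 4 were without overlap between groups, where 3.94% of all genes tested had every re-fed library above every fasted one.

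Autophagy is the process named in the title of the study, and most of its genes did not pass the test. Of 38 autophagy genes 1 rose and 1 fell, with a median of -0.06, both shares below the 4.50% and 4.14% of all genes. Ulk1, the kinase that starts autophagosome formation, was at 72.3, 72.3, 71.9, 69.1 and 71.7 CPM fasted and 95.7, 102, 108, 106 and 99.6 CPM re-fed (log2 fold change 0.52 ± 0.08, adjusted p = 0.00048). The fasted values lay within 4 CPM of each other, and all re-fed ones lay above. Stbd1, a glycogen-binding receptor for autophagy, was at 121, 115, 121, 106 and 115 CPM fasted and 85.2, 67.02, 62.5, 97.97 and 81.3 CPM re-fed (log2 fold change -0.55 ± 0.12, adjusted p = 0.00645). Map1lc3b, an ATG8 protein, had log2 fold change -0.18 ± 0.09, adjusted p = 0.2503, Sqstm1, a cargo receptor, log2 fold change -0.29 ± 0.11, adjusted p = 0.1197, and Becn1 log2 fold change -0.10 ± 0.06, adjusted p = 0.316. The number of autophagy genes that fell was 3 without re-fed library 1, without fasted library 3 and without the clock-shifted libraries, and 2 without re-fed library 2 or 4.

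Of 30 lysosome genes 1 rose and 3 fell, where 4.50% of all genes tested rose and 4.14% fell. The rise, of the proton pump subunit Atp6v0a1, was lost without any 1 of re-fed libraries 1 to 4 or fasted libraries 1, 3, 4 and 5. Psap, the precursor of sphingolipid activators, was at 525, 502, 614, 559.7 and 573 CPM fasted and 454, 358, 379.8, 360.1 and 418 CPM re-fed (log2 fold change -0.49 ± 0.07, adjusted p = 0.00032). Lipa, lysosomal acid lipase, was at 193, 257, 233, 273 and 253 CPM fasted and 201, 177, 162, 174 and 158 CPM re-fed (log2 fold change -0.47 ± 0.10, adjusted p = 0.00416). The groups overlapped for Lipa through fasted library 1 and re-fed library 1. Its log2 fold change under control ASO was 0.06, and the difference of -0.53 (95% interval -0.82 to -0.24) did not pass the test (adjusted p = 0.168). Lamp1 had log2 fold change -0.04 ± 0.06, adjusted p = 0.781 and Tfeb, a master regulator of lysosome genes, log2 fold change 0.27 ± 0.15, adjusted p = 0.295.

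Acute phase genes fell in 10 of 26 cases and rose in 2, with a median of -0.55. Over all genes tested 4.14% fell and 4.50% rose. Saa1 and Saa2 encode serum amyloid A proteins, secreted by hepatocytes in inflammation. Saa1 (chr7:46740497-46742980, minus strand) was at 4170.1, 40.6, 4860.2, 121 and 2174 CPM in fasted libraries 1 to 5 and 111, 92.9, 102, 71.8 and 277 CPM in re-fed libraries 1 to 5 (log2 fold change -4.12 ± 0.98, adjusted p = 0.0125). Fasted libraries 1, 3 and 5 were high, while fasted libraries 2 and 4 lay in or below the re-fed range. Saa2 (chr7:46751790-46754313, plus strand) was at 3297, 22.3, 4152, 58.1 and 1757 CPM fasted and 50.1, 39.9, 28.5, 35.001 and 82.2 CPM re-fed (log2 fold change -5.30 ± 1.06, adjusted p = 0.00372). Lcn2, an iron-siderophore binding protein, was at 332, 10.1, 539.5, 25.5 and 222 CPM fasted and 27.5, 15.9, 22.2, 9.76 and 12.8 CPM re-fed (log2 fold change -3.68 ± 0.70, adjusted p = 0.00263). Fgl1, a hepatocyte-secreted fibrinogen-like protein, was at 1079, 222, 1211, 373 and 752 CPM fasted and 261, 234, 214, 248 and 319 CPM re-fed (log2 fold change -1.51 ± 0.34, adjusted p = 0.00932). The same 3 fasted libraries were high in each of these genes, and the groups overlapped in all of them. Il1rn, the interleukin 1 receptor antagonist, was the 1 fallen member whose groups did not overlap. It was at 3.73, 2.77, 4.87, 5.37 and 4.71 CPM fasted and 2.01, 0.435, 1.303, 1.06 and 1.03 CPM re-fed (log2 fold change -1.87 ± 0.39, adjusted p = 0.00565), with a control ASO log2 fold change of -1.80. The fibrinogen genes Fga, Fgb and Fgg, named after their values were seen, had log2 fold changes of -0.07, -0.14 and -0.15 and did not pass the test. Saa1 and Saa2 are near-identical copies, and reads may be split between them.

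These acute phase calls leaned on few libraries. Without the clock-shifted libraries 6 of the 26 fell, with Saa1 at -3.46 and Saa2 at -4.57. That fit keeps fasted libraries 1, 2 and 4, and of these only library 1 was high in Saa1, Saa2, Saa3 and Lcn2. The size of their falls in that fit therefore rests on 1 library. Saa3 and Orm2 were also among the 10, and without the clock-shifted libraries their values were -3.20 and -1.29 and that of Lcn2 -2.80, with the Orm2 call lost (adjusted p = 0.075). Without fasted library 3 the log2 fold change of Lcn2 was -3.07 and that of Saa3 -3.64 (-4.37 with it). In limma on log2(FPKM + 1) 5 of the 26 fell, and 1 without a filter on low FPKM. In the filtered fit the Saa1 and Saa2 calls were lost, with log2 fold changes of -2.69 and -3.53 (adjusted p 0.117 and 0.0548). Over all alternatives the adjusted p ran from 0.000157 to 0.193 for Saa1 and from 4.9e-07 to 0.0996 for Saa2. The number that rose was 0 without re-fed library 2 or fasted library 3 or 5, and 1 without fasted library 4. The risen members include Hamp, hepcidin, the iron hormone, named after its values were seen. Hamp was at 703, 668, 566, 577 and 595 CPM fasted and 1373, 1832, 976, 899 and 1346 CPM re-fed (log2 fold change 1.05 ± 0.28, adjusted p = 0.0269), and its call was lost in each of the 3 fits with 0 risen. In the control ASO groups Saa1 was at 46.5 to 152 CPM fasted and 66.7 to 469.8 CPM re-fed, far below the 3 high PLIN5 ASO libraries. The difference between the 2 responses was -6.57 (95% interval -9.57 to -3.57) for Saa2 and did not pass the test (adjusted p = 0.118). Saa2 was at 21.6 to 61.9 CPM in the fasted control ASO libraries. It was at 178 and 138 CPM in the clock-shifted re-fed control ASO libraries 3 and 5 and at 27.0 to 34.8 CPM in the other re-fed ones. Kupffer cell and macrophage markers had 0 of 14 called, 0 at zero CPM in all 10 libraries, a median of -0.37 and a summed level of 227 to 554 CPM fasted and 180 to 332 CPM re-fed. Their part in these falls was not tested, and in bulk tissue fewer cells of a type and less RNA per cell cannot be told apart.

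**Figure D4:**
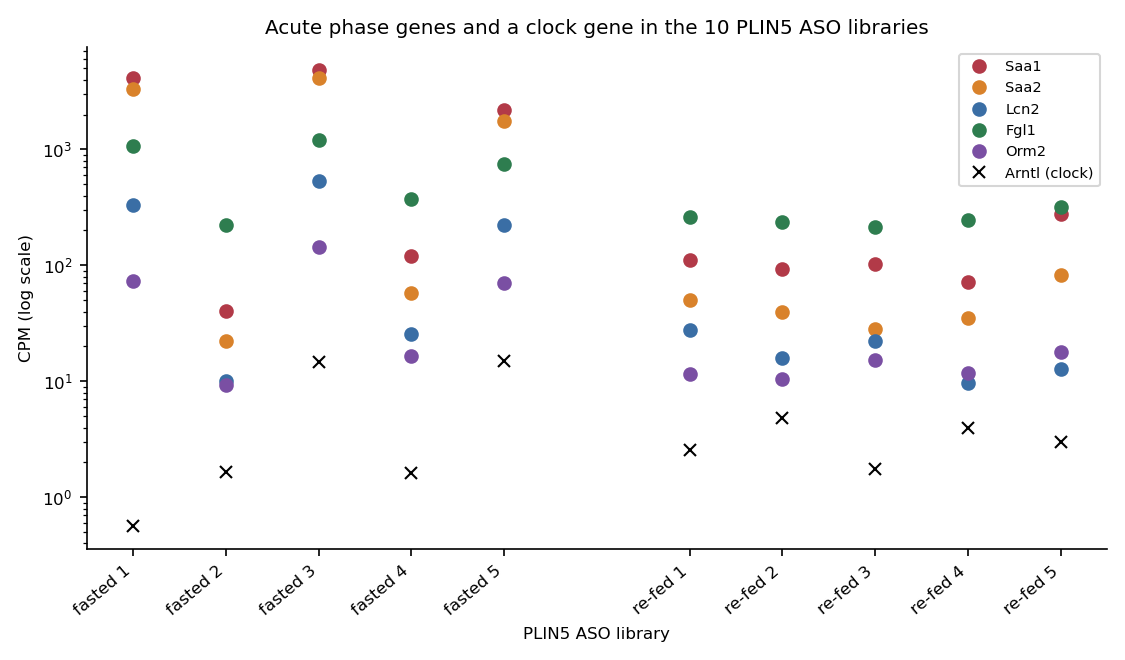
CPM (log axis) of 5 acute phase genes and of Arntl in each of the 10 PLIN5 ASO libraries. Fasted libraries 1, 3 and 5 hold the high acute phase values, and Arntl is high in fasted libraries 3 and 5 but at 0.566 CPM in fasted library 1.

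Of 25 inflammatory signalling genes 2 fell and 0 rose, beside 4.14% fallen and 4.50% risen over all genes tested. Without any 1 of re-fed libraries 2 to 5 or fasted libraries 1 and 5, 1 member fell. Nfkbia, the NF-kB inhibitor and target, was at 59.6, 61.6, 62.1, 53.3 and 62.5 CPM fasted and 39.7, 36.2, 26.6, 35.1 and 30.6 CPM re-fed (log2 fold change -0.83 ± 0.14, adjusted p = 0.00068) with no overlap between the groups. Cebpb, a transcription factor of the acute phase response kept in the integrated stress response list, was at 144, 149.9, 147, 228 and 194 CPM fasted and 93.9, 120.3, 74.8, 84.3 and 82.9 CPM re-fed (log2 fold change -0.92 ± 0.17, adjusted p = 0.00239). Il1b, an inflammatory cytokine, was at 0.233 to 2.69 CPM fasted and 0.379 to 1.603 CPM re-fed (log2 fold change -0.22 ± 0.63, adjusted p = 0.871; 1.07 without the clock-shifted libraries, adjusted p = 0.185), and Tnf and Il6 did not pass the count filter.

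Of 11 metal-handling genes 1 rose and 2 fell, beside 4.50% risen and 4.14% fallen over all genes tested. The metallothioneins Mt1 and Mt2, metal-binding proteins raised by glucocorticoids and zinc, fell. Mt1 was at 325, 285, 176, 262 and 142 CPM fasted and 122, 59.6, 77.4, 5.43 and 24.2 CPM re-fed (log2 fold change -2.05 ± 0.51, adjusted p = 0.0166), and its call was lost with only the groups compared in the fit (adjusted p = 0.0607). Mt2 was at 142, 106, 105, 86.1 and 67.4 CPM fasted and 46.6, 13.1, 23.5, 1.13 and 5.89 CPM re-fed (log2 fold change -2.50 ± 0.55, adjusted p = 0.00768). In both genes re-fed library 4 was lowest and re-fed library 1 highest of the re-fed, and without library 1 the Mt2 value was -3.23. Hamp2, a hepcidin paralog, rose with log2 fold change 1.81 ± 0.47, adjusted p = 0.0226, and its adjusted p was 0.051 to 0.0806 without fasted library 1, fasted library 5 or re-fed library 2. In the fit without the clock-shifted libraries 2 of the 11 rose.

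Ribosome biogenesis had 6 of 30 risen, a larger share than the 4.50% of all genes, and 1 fallen. The number risen was 4 to 9 over the alternatives, and the fall was lost without any 1 of re-fed libraries 2, 4 and 5 or fasted libraries 1, 2 and 5. The lists that follow held at most 2 called members each, where 4.50% of all genes tested rose and 4.14% fell. Endoplasmic reticulum chaperones had 1 of 25 risen, Sec61b, a subunit of the protein translocation channel (log2 fold change 0.53 ± 0.09, adjusted p = 0.00098), against 9 of 25 under control ASO. The difference was called for 0 of the 25. Oxidative phosphorylation had 1 of 27 risen, nutrient sensing 1 of 20 and the growth hormone axis 1 of 18, and 0 fell in each. Integrated stress response (20), immediate early (17) and NRF2 antioxidant genes (13) had 1 risen and 1 fallen each. Of 19 bile acid genes 0 rose and 1 fell. Of 24 xenobiotic genes 1 rose and 1 fell, and 0 rose and 7 fell without the clock-shifted libraries. Of 18 clock genes 0 were called in the main fit, and at most 1 rose in any alternative. In the fit without the clock-shifted libraries 3 fell, but those libraries were set apart by clock genes, so this count is no independent test. The single rises in oxidative phosphorylation, the growth hormone axis, the integrated stress response and xenobiotic metabolism, and the single falls in the NRF2 and bile acid lists, were lost without re-fed library 2, among others. The xenobiotic fall, of Sult2a8, was lost without any 1 of re-fed libraries 1, 2 and 3 or fasted libraries 1, 2, 4 and 5. Hepatocyte markers had 2 of 11 risen (1 without any 1 of re-fed libraries 2 and 3 or fasted libraries 3 and 5), and each of the other 7 marker lists had 0 members called.

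The control ASO contrast, from 9 other libraries in the same fit, called 1759 genes (13.2%). Of the 598 genes risen under PLIN5 ASO, 222 also rose under control ASO, which is 37.12% of the PLIN5 ASO and 26.03% of the control ASO rises. Of the 550 fallen, 268 were shared, 48.73% and 29.58% of each list. Among PLIN5 ASO rises 88.96% had a positive control fold change, and among falls 87.45% a negative one. The difference between the 2 responses itself was called for 3 of 13293 genes (0.0226%), with 1991 at an unadjusted p below 0.05. They include Dpm3, a dolichol-phosphate mannose synthase subunit, and Rnf144b, a ubiquitin ligase.

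Dpm3 was at 24.4, 25.5, 24.4, 25.5 and 22.8 CPM in the fasted and 30.01, 33.9, 29.4, 26.7 and 26.2 CPM in the re-fed PLIN5 ASO libraries, with log2 fold changes of 0.25 under PLIN5 ASO and -0.34 under control ASO. Rnf144b was at 42.7, 51.9, 52.1, 51.7 and 47.9 CPM fasted and 37.5, 37.7, 37.9, 33.3 and 38.8 CPM re-fed, with -0.41 and 0.78. The differences were 0.60 (95% interval 0.39 to 0.80) for Dpm3 and -1.19 (95% interval -1.61 to -0.77) for Rnf144b, each with an adjusted p = 0.0482. The number called for the difference was 0 without any 1 of the 4 fasted control ASO libraries, re-fed control ASO libraries 1 and 2, re-fed PLIN5 ASO libraries 2 and 3, or fasted PLIN5 ASO libraries 1, 3, 4 and 5. It was 1 without re-fed control ASO library 3 or re-fed PLIN5 ASO library 1. Fasted control ASO libraries 3 and 4 differed less in their counts than any other pair within a group, and the labels do not say whether they share an animal. With these 2 joined as 1 sample the number was 0. DESeq2 called 95 genes for the difference. Without the clock-shifted libraries 4 genes were called for the difference, and Dpm3 (0.59, adjusted p = 0.185) and Rnf144b (-0.90, adjusted p = 0.123) were not among them. In that fit the change under PLIN5 ASO was 0.22 for Dpm3 (adjusted p = 0.129, against 0.0269 with all libraries) and -0.40 for Rnf144b (adjusted p = 0.0404, against 0.0681 with all libraries).

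**Figure D5:**
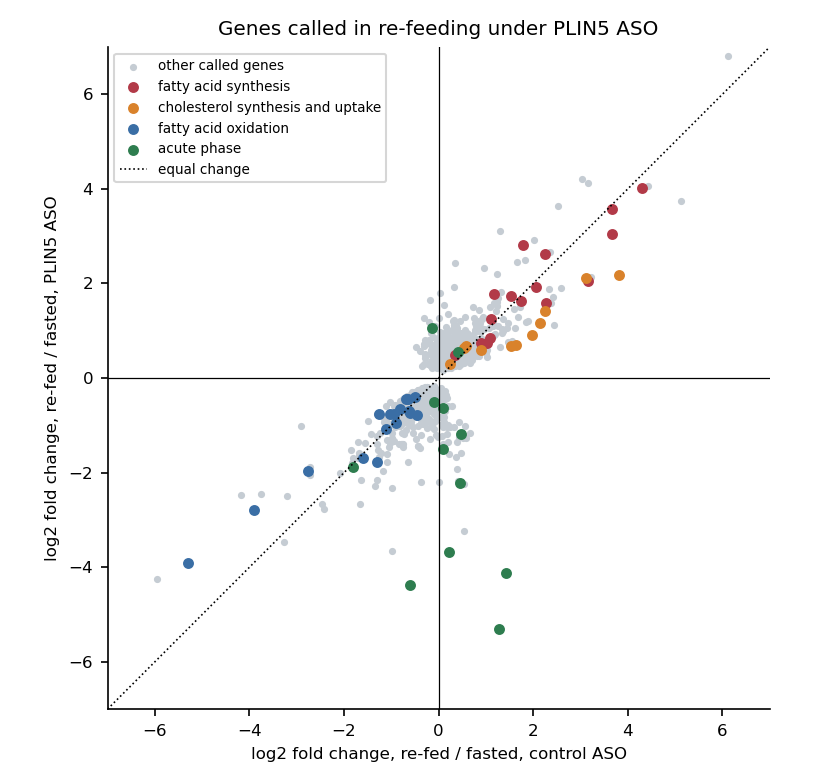
Log2 fold change of re-fed over fasted under PLIN5 ASO (vertical) against control ASO (horizontal) for the 1148 genes called under PLIN5 ASO, with 4 lists in colour and a dotted line of equal change. Saa2 lies lowest among the acute phase members, at -5.30 under PLIN5 ASO and 1.27 under control ASO, while Fasn lies on the dotted line at 3.56 and 3.66. In the control ASO groups Saa2 was high only in re-fed libraries 3 and 5.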

How the data were processed

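RNA-seq of 19 mouse liver libraries was deposited as 1 table of gene counts and 1 of FPKM values. Per the submitters' processing notes, the tools were FastQC, HISAT2 2.0.2, Cuffdiff 2.2.1, Subread and edgeR, on mm10 (GRCm38), and the sources used here do not give their order, settings or use of strand. Unnormalized counts per gene (24421 genes) and FPKM values (24347 genes) were deposited by the authors. Of the count rows, 27 carry a spreadsheet date as symbol and were kept unnamed. In R 4.3.3, edgeR 4.0.16 fitted 1 mean per group over all 19 libraries by its quasi-likelihood method, after TMM scaling and filterByExpr with a minimum count of 10, which left 13293 genes. Benjamini-Hochberg adjustment covered all of them, at a threshold of 0.05, and all tests were two-sided. The biological coefficient of variation was 19.27%, and total counts were 24.94 to 66.86 times 1e6.

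The gene lists and the genes named were chosen with earlier results of these data known. Named were called genes of at least 5 CPM among the 15 largest rises and falls, up to 5 members per list with the smallest p, and a short list always shown. The promoters printed depart from the planned choice by smallest p. The fit was tested on simulated counts with known changes. Alternatives were RLE scaling, other count filters, DESeq2 1.42.0, only the groups compared, a replicate block, limma 3.58.1 on log2(FPKM + 1) and log2(FPKM + 0.1) of the deposited FPKM values with a mean of at least 0.5 or unfiltered, and leaving out each library. Leaving out the clock-shifted libraries, joining fasted control ASO libraries 3 and 4 (chi-square per degree of freedom 3.277 between their counts, against 19.5 to 233.9 for other pairs within a group), and taking out a trend with transcript length were chosen after seeing the data. Some genes that entered the counts are not reported here. Gene positions are from GENCODE M21 and promoters from RefSeq.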

Additional observations from a re-analysis of the deposited data

Results flagged for a closer look

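In 16 of 190 groups of 5 values tested (8.42%), 1 library stood apart from the other 4 by Dixon's 95% criterion, which chance meets in about 1 of 20 groups. Among fasted PLIN5 ASO libraries, Tkfc was high in library 2 (200.0 CPM, others 153.5 to 165.6), Nsdhl was high in library 3 (24.54 CPM, others 11.07 to 14.2) and Ulk1 was low in library 4 (69.09 CPM, others 71.71 to 72.28). Re-fed PLIN5 ASO library 1 was high for Cyp4a14 (369.2 CPM, others 23.46 to 92.01), Cyp4a10 (375.3 CPM, others 55.43 to 114.6), Bdh1 (409.2 CPM, others 299.2 to 316) and Cpt1a (540.7 CPM, others 310.3 to 353.3), and low for G6pc (460.3 CPM, others 876.7 to 977.4). Re-fed library 2 was high for Igfbp2 (494.3 CPM, others 257.8 to 311.9), Tfeb (14.69 CPM, others 7.94 to 9.697) and Hamp2 (134.7 CPM, others 45.05 to 55.85). In re-fed library 3, Pklr (1211 CPM, others 447.7 to 522.4) and Klf10 (121.3 CPM, others 65.85 to 81.55) were high. Rnf144b was low in re-fed library 4 (33.25 CPM, others 37.49 to 38.83), and Saa1 was high in re-fed library 5 (277.1 CPM, others 71.82 to 110.9). That library also had the highest total, 66.86 against 24.94 to 28.4, in units of 1e6 counts.

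By the test of the difference itself, the response under PLIN5 ASO minus that under control ASO was 0.5951 for Dpm3 and -1.19 for Rnf144b on the log2 scale.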

How the results depend on the processing

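The count of 1148 called genes was 1140 with RLE scaling, 942 without a filter, 1197 with at least 1 CPM in 4 libraries, 1511 by DESeq2, 793 with only the groups compared, and 1203, 1171 and 1058 by limma on FPKM (pseudocounts 1 and 0.1, and no filter). Leaving out 1 library gave 741 to 1170. Without the clock-shifted libraries 1048 were called, 444 up and 604 down. Joining fasted control ASO libraries 3 and 4 gave 1037, and taking out the length trend 1240. The 3 genes called for the difference between ASOs became 0 without a filter, 95 by DESeq2, 0, 0 and 6 by limma on FPKM, 0 with libraries 3 and 4 joined, 0 with the length trend out, and 0 to 3 leaving out 1 library. For this test, fitting only the groups compared is the same fit. With a replicate block, 1229 genes were called (1056 of the 1148) and 1 for the difference. Same-numbered libraries correlated at -0.396 to 0.173, and 0 fasted and 1 re-fed library correlated best with their own number. The labels do not say what same-numbered samples share, and correlations between different libraries cannot settle it. Of 98 named called genes, 58 kept their call in every alternative, 68 leaving out each library, 78 without the clock-shifted libraries and 94 with the block. Hcn3 reversed, to -0.0200, by limma on unfiltered log2(FPKM + 1); the cause was not tested.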

Other observations

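Lists added after the values had been seen describe further genes, and their counts support nothing by themselves. For these lists too, the shares over all genes tested were 4.50% risen and 4.14% fallen under PLIN5 ASO. Of 20 tested genes of peroxisomal fatty acid oxidation, 14 fell and 0 rose under PLIN5 ASO, as 14 and 0 did under control ASO. They include Crot (-1.58 ± 0.25) and Crat (-1.58 ± 0.25), carnitine acyltransferases, Slc27a2 (-0.81 ± 0.10), a very long-chain acyl-CoA synthetase, and Amacr (-0.63 ± 0.07), a racemase of branched fatty acids (log2 fold change ± SE). The count was 14 to 16 over the alternatives. In the pentose phosphate pathway 4 of 8 genes rose, Pgd (0.84 ± 0.12), Rpia (1.11 ± 0.17), Tkt (0.87 ± 0.14) and Taldo1 (0.38 ± 0.08), and H6pd of the endoplasmic reticulum fell (-0.39 ± 0.11). The H6pd call was lost without any 1 of re-fed libraries 2, 3 and 4 or fasted libraries 1, 2, 3 and 5.

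Of 34 interferon-inducible genes, 11 fell and 0 rose, against 10 fallen and 1 risen under control ASO. Zbp1, a nucleic acid sensor, had a mean of 19.1 ± 3.42 CPM (SD, n = 5) fasted and 7.37 ± 1.29 CPM re-fed, with a log2 fold change of -1.38 ± 0.18. Rsad2, an antiviral enzyme, had -0.78 ± 0.14, and the guanylate-binding protein gene Gbp10 -0.95 ± 0.18. The count was 8 to 12 over the alternatives. In the pyruvate dehydrogenase and citrate cycle list 4 of 19 rose and 0 fell, with Pdhb at 0.69 ± 0.08 and Cs, citrate synthase, at 0.41 ± 0.08. By DESeq2 8 of the 19 rose and 1 fell.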
